A study of Mus musculus with 4 samples.

Results

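Among the CD8 T cells of B16 melanomas on day 8 of growth, 104 carried transcripts of both *Tcf7* and *Pdcd1* and none of *Havcr2*. *Tcf7* codes for TCF-1, a transcription factor of naive, memory and stem-like T cells, *Pdcd1* for the inhibitory receptor PD-1, and *Havcr2* for TIM-3, a receptor of terminally exhausted cells. In chronic infection and in tumors, CD8 T cells that keep TCF-1 under lasting antigen divide and give rise to cells that gain TIM-3, granzymes and cytokines and lose TCF-1. Such precursor cells often carry the surface receptor SLAMF6 (gene *Slamf6*) and rely on lymphoid homing and survival receptors more than their progeny do. On the mouse genome build GRCm38, *Tcf7* lies at chr11:52252371-52283014 (minus strand), *Pdcd1* at chr1:94038305-94052553 (minus strand), *Havcr2* at chr11:46454935-46481255 (plus strand) and *Slamf6* at chr1:171917515-171953170 (plus strand).

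The cells were chosen by the counts of unique molecular identifiers (UMIs), each of which stands for a captured RNA molecule. A cell had at least 1 UMI each of *Cd8a*, *Tcf7* and *Pdcd1*, at least 3 UMIs of *Cd3d*, *Cd3e* and *Cd3g* together, no UMI of *Havcr2* or of *Foxp3* (the factor of regulatory T cells), at most 3 of the macrophage genes *C1qa*, *C1qb* and *Lyz2*, and fewer than 3 of the cell cycle genes *Mki67* and *Top2a*. They made up 104 of the 1213 CD8 T cells that met all of these conditions except those on *Tcf7*, *Pdcd1* and *Havcr2*, and 104 of the 11649 cells that passed the limits on genes and mitochondrial RNA. Because measured values chose the cells, the levels of these 13 genes are a description and were not tested. They are called Tcf7+ Pdcd1+ cells here, and they were set against 239 Pdcd1+ Havcr2+ cells (any *Tcf7*) and 415 Pdcd1-negative Tcf7+ cells (no *Havcr2*) of the same gate.

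The tumors came from a single clone of the B16-F10 melanoma line, picked for bright fluorescence, that made the green protein ZsGreen (ZsG) when mice drank doxycycline, and were injected under the skin of mice. ZsG in an immune cell therefore marked material from tumor cells. CD45+ immune cells and CD45+ TCRb+ T cells were sorted separately, each through a ZsG-negative and a ZsG-positive gate, which gave 4 libraries with no replicate. The positive gate of the CD45 sort took bright cells, and per the study's account most lymphocytes with ZsG were sorted with its negative cells, so that library is not one of cells free of ZsG. The study used C57BL/6J mice, but the strain, sex, age and number of mice behind each library are not given in the labels, and whether the gates of a sort shared mice is not stated.

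The libraries held 5437 (CD45 sort, ZsG-negative), 5168 (CD45 sort, ZsG-positive), 1136 (T cell sort, ZsG-negative) and 2396 (T cell sort, ZsG-positive) cell barcodes, with 47537541, 56510578, 10030971 and 22100220 UMIs. Between 1 and 6 barcodes were shared by any pair of libraries, and none of them belonged to a Tcf7+ Pdcd1+ cell. For the T cell sort the name of the deposited table and the names of its libraries give opposite orders, and the order of the table was used. If the other order were right, every ZsG ratio of the T cell sort given here would change its sign, while the comparisons between classes would stay as they are.

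The Tcf7+ Pdcd1+ cells numbered 53 in the ZsG-negative library of the CD45 sort, 24 in the ZsG-negative and 26 in the ZsG-positive library of the T cell sort, and 1 in the ZsG-positive library of the CD45 sort. That last library held only 31 gated CD8 T cells and took no part in the tests. In the order just given these were 53 of 482 gated CD8 T cells (95% exact binomial interval 8.35% to 14.1%), 6.80% (4.40 to 9.95) of 353, 7.49% (4.95 to 10.8) of 347 and 3.23% (0.0816 to 16.7) of 31. These intervals, like all those below, cover counting error only. In the T cell sort the share was nearly level between the gates, with a log2 ratio of ZsG-positive over ZsG-negative of 0.14 (exact conditional interval -0.72 to 1.00). In the same libraries the Pdcd1+ Havcr2+ cells went from 10.2% to 24.2% (log2 ratio 1.25, interval 0.67 to 1.85), and the Pdcd1-negative Tcf7+ cells from 37.4% to 24.2% (log2 ratio -0.63, interval -1.04 to -0.22). With 1 library per gate none of these ratios was tested, and the interval of the Tcf7+ Pdcd1+ cells overlaps both of the others.

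**Figure D1:**
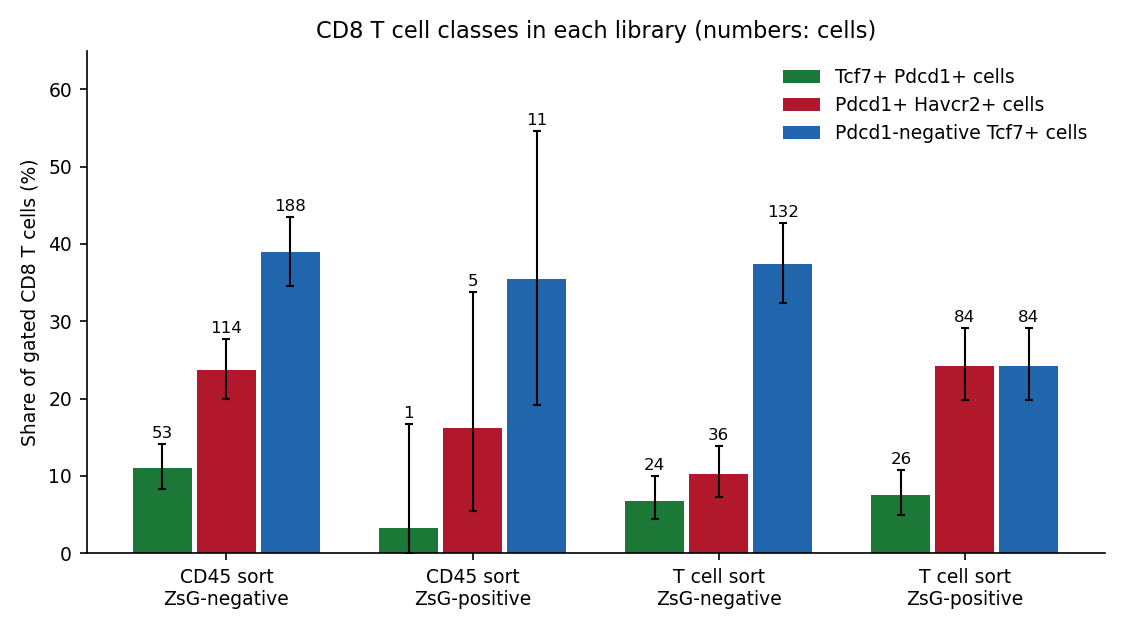
Share of gated CD8 T cells (%) in each of the 4 libraries for the 3 classes, with 95% exact binomial intervals as error bars and the number of cells above each bar. The Tcf7+ Pdcd1+ cells were 6.80% and 7.49% in the gates of the T cell sort, where the Pdcd1+ Havcr2+ cells were 10.2% and 24.2%.

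Depth differed between the classes. The Tcf7+ Pdcd1+ cells had a median of 6349.5 UMIs and 1942 genes, close to the 6241 UMIs of the Pdcd1-negative Tcf7+ cells, and the Pdcd1+ Havcr2+ cells had 12794 UMIs. A deeper cell is more likely to show a UMI of *Havcr2*, so the part of depth in the split on this gene was not tested, and shares of cells are given below also after each cell was thinned to 2000 UMIs. When cells were thinned before the gate, 20 Tcf7+ Pdcd1+ cells were left.

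Most members met the thresholds by few molecules. Of the 104 cells, 52 had exactly 1 UMI of *Tcf7* and 41 exactly 1 UMI of *Pdcd1*, while 103 had at least 5 UMIs of the CD3 genes and 86 had none of *C1qa*, *C1qb* and *Lyz2*. Across the CD45 ZsG-negative, T cell ZsG-negative and T cell ZsG-positive libraries, *Tcf7* stood at 270, 287 and 201 counts per 1000000 UMIs of the class in that library (CPM) in the Tcf7+ Pdcd1+ cells, at 337, 322 and 315 CPM in the Pdcd1-negative Tcf7+ cells and at 18.0, 15.7 and 6.28 CPM in the Pdcd1+ Havcr2+ cells, which were not selected on it. *Pdcd1* stood at 335, 357 and 398 CPM, beside 411, 431 and 348 CPM in the Pdcd1+ Havcr2+ cells. Just outside the gate, 12 cells met every condition but had 1 UMI of *Havcr2*. Their median depth was 14598 UMIs, their *Slamf6* level 91.2 CPM and their *Ccl3* level 633 CPM, beside 95.4 and 114 CPM in the members. On the *Pdcd1* limit, the 41 members with 1 UMI had 60.6 CPM of *Lag3*, and the 415 cells with none had 13.6 CPM. Across the same limit *Slamf6* (92.7 and 91.6 CPM) and *Il7r* (432 and 408 CPM) were nearly level. The 31 members with 1 UMI of *Cd8a* had 4.98 CPM each of *Lag3* and *Ccl3*, beside 77.0 and 114 CPM in all 104 members. On the *Tcf7* limit, the 52 members with 1 UMI had 262 CPM of *Il7r*, and the 163 cells with *Pdcd1* but neither *Tcf7* nor *Havcr2* had 124 CPM.

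The cells bore the marks of CD8 T cells in genes outside the rule. *Cd8b1*, the partner chain of CD8, was seen in 85.6% of them and *Trac*, the constant part of the T cell receptor alpha chain, in 89.4%, while no UMI of *Cd4* was found. Of the marker genes named for this population, *Slamf6* was not used by the rule. It had a UMI in 41.3% of the Tcf7+ Pdcd1+ cells, 27.2% of the Pdcd1+ Havcr2+ cells and 37.3% of the Pdcd1-negative Tcf7+ cells, and after thinning in 18.3%, 8.37% and 15.9%. At the same 2000 UMIs, macrophage-like cells (at least 10 UMIs of *C1qa*, *C1qb* and *Lyz2* and none of CD3) of the same libraries, whose median depths before thinning were 8395, 14791.5 and 11647.5 UMIs, held a *Slamf6* UMI in 0.837%, 1.61% and 3.85%, against 17.0%, 16.7% and 23.1% of the members, whose medians were 6621, 5269.5 and 6315.5 UMIs. For *Tcf7* the shares in macrophage-like cells were 4 of 239, 0 of 62 and 0 of 208, which allow up to 4.84% and 1.44% in the latter libraries. Genes often named beside these for precursor cells were close to the floor. *Id3* had 5 UMIs in all 104 cells and *Cxcr5* had 2.

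UMIs were summed over the cells of each class in each of the 3 libraries with at least 10 cells of every class and compared with edgeR's quasi-likelihood test with the library as a block. P-values were adjusted (Benjamini-Hochberg) over the 5773 genes tested, and an adjusted p under 0.05 was called. The libraries are the units, so these p-values measure the spread between 3 libraries of different sorts and gates, not between mice. Against the Pdcd1+ Havcr2+ cells, 577 genes were higher (9.99% of those tested) and 514 lower (8.9%) in the Tcf7+ Pdcd1+ cells. Against the Pdcd1-negative Tcf7+ cells, 103 were higher (1.78%) and 150 lower (2.6%), or 83 and 67 when mitochondrial and ribosomal genes were taken out. Within the T cell sort alone, that is without the CD45 library, the counts were 179 and 95 for the first comparison and 57 and 92 for the second. Without the T cell ZsG-negative library the second comparison gave 49 and 73, and without the T cell ZsG-positive library 72 and 77. Of the 1091 and 253 genes called, 1070 and 248 could be fitted in the T cell sort alone, where 2 and 0 had the opposite sign and none of them was called. There 264 and 140 of the genes were still called. The libraries of that sort were also part of the main fit, so agreement in sign was likely.

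**Figure D2:**
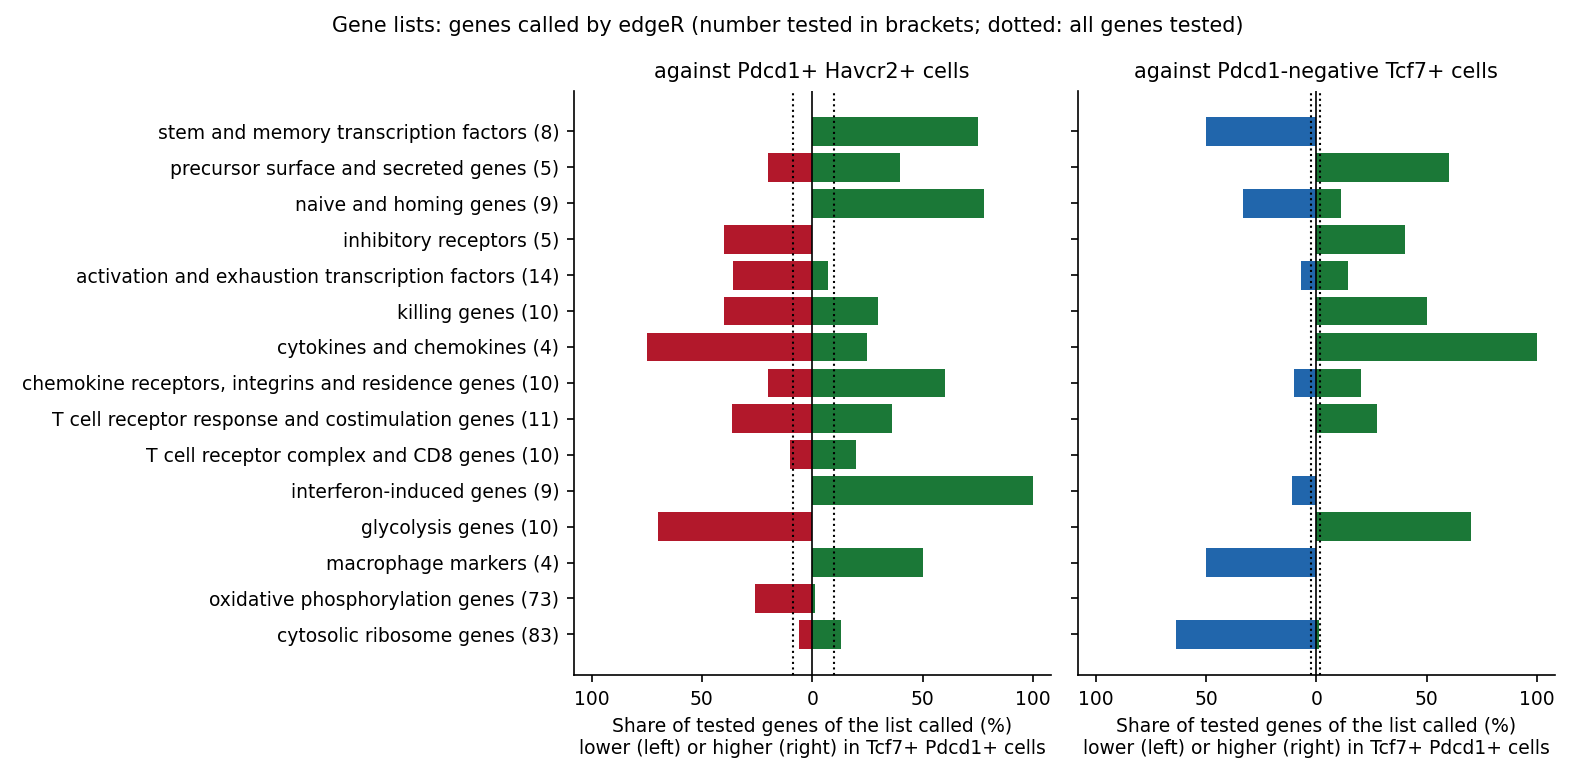
Share of the tested genes of each list (%, number tested in brackets) called higher (right, green) or lower (left, red or blue) in Tcf7+ Pdcd1+ cells against each of the other classes. Dotted lines mark the shares over all 5773 genes, 9.99% and 8.9% in the left panel and 1.78% and 2.6% in the right. All 9 interferon-induced genes were higher against the Pdcd1+ Havcr2+ cells, and 53 of 83 ribosome genes were lower against the Pdcd1-negative Tcf7+ cells.

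Of the transcription factors of naive and memory T cells, *Klf2*, *Klf3*, *Lef1* and *Satb1* were called between the other classes. Of the 8 that passed the filter on low counts (of 10 listed), 6 were higher than in the Pdcd1+ Havcr2+ cells and none lower, with a median log2 fold change of 1.40 beside -0.00 over all genes. Against the Pdcd1-negative Tcf7+ cells 4 were lower and none higher (median -0.91, beside -0.01). *Klf2*, which keeps up the homing receptors of resting T cells, stood at 119, 199 and 183 CPM, against 22.8, 18.0 and 29.6 CPM in the Pdcd1+ Havcr2+ cells (log2 fold change 2.62 ± 0.23 SE, edgeR adjusted p = 2.8e-08) and 281, 386 and 273 CPM in the Pdcd1-negative Tcf7+ cells (-1.13 ± 0.17, edgeR adjusted p = 0.00021). For this gene the values of the 3 classes did not overlap. *Klf3*, *Lef1* and *Satb1* showed the same order, with log2 fold changes of 3.04 ± 0.28, 2.00 ± 0.34 and 1.12 ± 0.21 over the Pdcd1+ Havcr2+ cells and -0.90 ± 0.20, -1.41 ± 0.26 and -1.39 ± 0.18 over the Pdcd1-negative Tcf7+ cells, all called. *Lef1*, which codes for a factor of the same family as TCF-1, was uneven, at 126, 52.6 and 14.0 CPM. *Foxp1*, a factor of quiescent T cells, was called over the Pdcd1+ Havcr2+ cells (0.76), but not without the CD45 library (0.39) or the T cell ZsG-negative library (0.70), nor with DESeq2 (0.72). Without the CD45 library, where *Klf2* and *Klf3* were the 2 factors of the list still called over the Pdcd1+ Havcr2+ cells, the calls of *Lef1* (1.33) and *Satb1* (0.68) over the Pdcd1+ Havcr2+ cells and of *Klf3* (-0.98) over the Pdcd1-negative cells were lost, and the last was also lost without the T cell ZsG-negative library (-0.77) and after thinning (-0.32). The difference of *Lef1* from the Pdcd1-negative cells was -2.47 without the CD45 library. *Myb*, a factor of stem-like cells, was higher than in the Pdcd1+ Havcr2+ cells (1.51 ± 0.29, or 1.25 and not called without the CD45 library), and its difference from the Pdcd1-negative Tcf7+ cells was -0.21 ± 0.25 and not called. *Ikzf2*, which codes for Helios, followed the same order at 437, 234 and 173 CPM (1.74 ± 0.19 and -0.96 ± 0.17, both called), although it was listed with activation factors.

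Most of the genes of homing and survival were higher than in the Pdcd1+ Havcr2+ cells. Of 9 genes tested (of 10 listed), 7 were higher than in the Pdcd1+ Havcr2+ cells and none lower (median log2 fold change 2.47), and against the Pdcd1-negative Tcf7+ cells 1 was higher and 3 were lower (median -0.43). *Il7r*, the receptor for the survival cytokine IL-7, stood at 302, 561 and 187 CPM, against 48.3, 67.3 and 21.5 CPM in the Pdcd1+ Havcr2+ cells (2.88 ± 0.19, edgeR adjusted p = 1.6e-10). In the Pdcd1-negative Tcf7+ cells it was 383, 492 and 310 CPM, a difference of -0.43 ± 0.15 that was not called (edgeR adjusted p = 0.15). *S1pr1*, the receptor for exit from tissue, stood at 163, 105 and 32.8 CPM and rose by 3.49 ± 0.34 over the Pdcd1+ Havcr2+ cells. It was lower than in the Pdcd1-negative Tcf7+ cells (-1.04 ± 0.23), a call lost without either library of the T cell sort (-0.91 and -0.73) and after thinning (-0.82), while without the CD45 library the value was -1.78 and called. *Slamf6* was 79.1, 70.2 and 150 CPM, higher than in the Pdcd1+ Havcr2+ cells (26.0, 42.6 and 30.5 CPM, 1.67 ± 0.26, edgeR adjusted p = 6.1e-05) and -0.13 ± 0.22 from the Pdcd1-negative Tcf7+ cells (edgeR adjusted p = 0.86). Of the 10 chemokine receptors, integrins and residence genes tested, 6 were higher and 2 lower than in the Pdcd1+ Havcr2+ cells, and 2 were higher and 1 lower than in the Pdcd1-negative Tcf7+ cells. The chemokine receptors *Cxcr3* and *Cxcr4* were higher than in the Pdcd1+ Havcr2+ cells (2.33 ± 0.23 and 2.07 ± 0.29), while *Cxcr6*, a receptor of tissue-resident and effector cells, was lower (-1.48 ± 0.17). *Ccr7* was higher as well (1.05 ± 0.21), a call lost without the CD45 library (0.48) and after thinning (0.26). A UMI of *Ccr7* was seen in 25.0% of the Tcf7+ Pdcd1+ cells and 29.7% of the Pdcd1+ Havcr2+ cells, and after thinning in 15.4% and 12.1%.

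**Figure D3:**
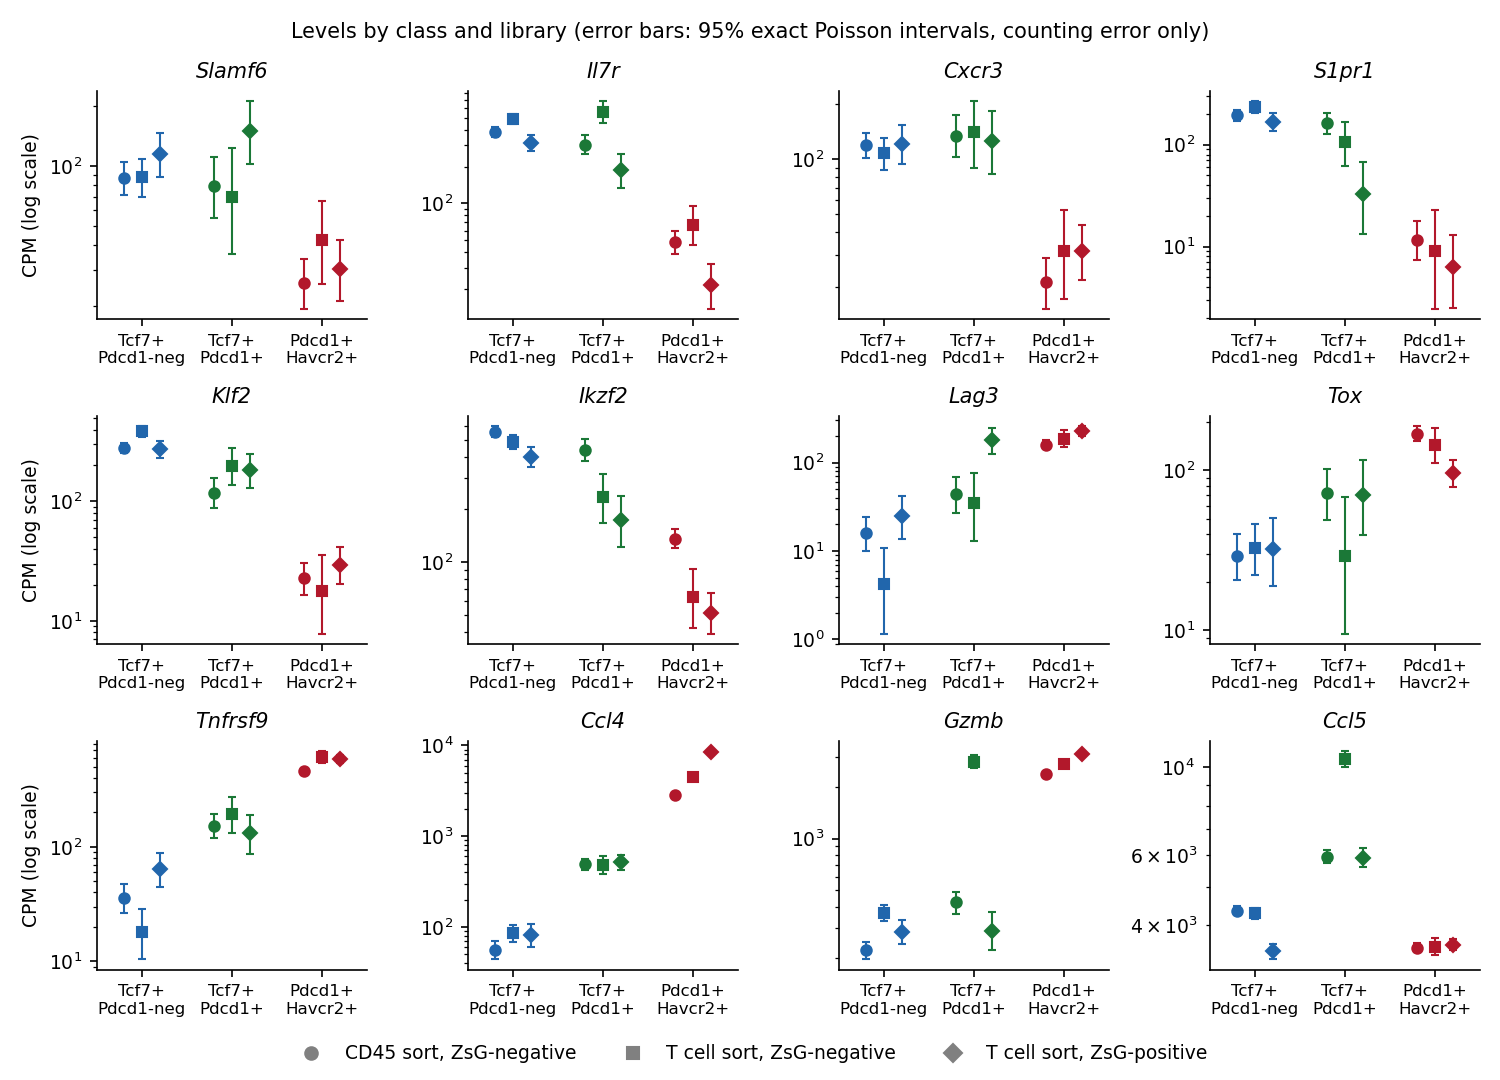
Level of 12 genes picked for display after their values were seen (CPM, log axis) in each class, for the 3 libraries that entered the tests (circle, square and diamond), with 95% exact Poisson intervals as error bars. *Il7r*, *Cxcr3*, *S1pr1* and *Klf2* were higher in the Tcf7+ Pdcd1+ cells than in the Pdcd1+ Havcr2+ cells in all 3 libraries, *Ccl4* and *Tnfrsf9* lower, and *Gzmb* reached 2819 CPM in the T cell ZsG-negative library alone.

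Some receptors induced by activation, *Lag3*, *Tnfrsf9* and *Tnfrsf4* among them, were higher than in the Pdcd1-negative Tcf7+ cells and lower than in the Pdcd1+ Havcr2+ cells. Of the 5 inhibitory receptors tested (of 10 listed), 2 were lower than in the Pdcd1+ Havcr2+ cells and 2 higher than in the Pdcd1-negative Tcf7+ cells, with median log2 fold changes of -0.47 and 1.12. *Lag3*, an inhibitory receptor that binds MHC class II, stood at 44.2, 35.1 and 178 CPM, against 160, 186 and 229 CPM in the Pdcd1+ Havcr2+ cells (-1.28 ± 0.28) and 16.0, 4.22 and 24.9 CPM in the Pdcd1-negative Tcf7+ cells (2.24 ± 0.40). *Ctla4* stood at 137, 134 and 192 CPM and did not pass the test against the Pdcd1+ Havcr2+ cells (-0.35 ± 0.19, edgeR adjusted p = 0.21), but was higher than in the Pdcd1-negative Tcf7+ cells (1.22 ± 0.22). The costimulatory receptors *Tnfrsf9* (4-1BB) and *Tnfrsf4* (OX40) were lower than in the Pdcd1+ Havcr2+ cells (-1.78 ± 0.21 and -1.87 ± 0.27) and higher than in the Pdcd1-negative Tcf7+ cells (1.95 ± 0.27 and 2.93 ± 0.44), calls that held without each library, although after thinning *Tnfrsf4* was no longer called in the second comparison (2.01). Of the 11 genes of T cell receptor response and costimulation tested, 4 were higher and 4 lower than in the Pdcd1+ Havcr2+ cells, and 3 were higher and none lower than in the Pdcd1-negative Tcf7+ cells. The 14 activation and exhaustion factors tested gave 1 higher and 5 lower, and 2 higher and 1 lower, in the same order, and the 10 genes of the receptor complex and CD8 gave 2 higher and 1 lower, and none. *Tox*, a factor of the exhaustion program, stood at 72.1, 29.2 and 70.2 CPM, lower than the 170, 144 and 96.0 CPM of the Pdcd1+ Havcr2+ cells (-1.18 ± 0.25), with a difference of 0.82 ± 0.31 from the Pdcd1-negative cells that was not called (edgeR adjusted p = 0.17). Without the CD45 library the calls of *Lag3* (-0.95) and *Tox* (-1.16) against the Pdcd1+ Havcr2+ cells and of *Ctla4* against the Pdcd1-negative cells (1.19) were lost. The first value of *Lag3* was -2.04 and called without the T cell ZsG-positive library. Its second value was 2.88 without the CD45 library and called, and 1.79 and not called after thinning. The costimulatory receptor *Cd28* was the higher in the Tcf7+ Pdcd1+ cells in both comparisons (0.68 ± 0.15 and 0.64 ± 0.15), but the first call was lost without the T cell ZsG-positive library (0.45) and the second when any library was left out (0.58 to 0.71).

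Secreted and killing products differed widely between the classes. Of 4 cytokines and chemokines tested (of 8 listed), 3 were lower and 1 higher than in the Pdcd1+ Havcr2+ cells, and all 4 were higher than in the Pdcd1-negative Tcf7+ cells. Of 10 killing genes tested, 4 were lower and 3 higher in the first comparison, and 5 were higher and none lower in the second. The 5 surface and secreted genes of precursor cells that were tested (of 6 listed), *Slamf6* and *Xcl1* among them, gave 2 higher and 1 lower, and 3 higher and none lower. *Ccl3* and *Ccl4*, chemokines that draw T cells and myeloid cells, stood at 65.1, 164 and 173 CPM and at 491, 485 and 515 CPM. In the Pdcd1+ Havcr2+ cells *Ccl4* was 2841, 4509 and 8497 CPM (-3.26 ± 0.19, edgeR adjusted p = 1.2e-11), and in the Pdcd1-negative Tcf7+ cells 56.5, 85.5 and 82.0 CPM (2.60 ± 0.22, edgeR adjusted p = 7.6e-08). *Ccl3* differed by -4.55 ± 0.23 and 5.23 ± 0.48 in the same order. *Ifng*, at 41.9, 556 and 201 CPM, was lower than in the Pdcd1+ Havcr2+ cells (-3.64 ± 0.43) and higher than in the Pdcd1-negative Tcf7+ cells (2.45 ± 0.55, or 2.79 and not called without the CD45 library). The first value of *Ifng* was -5.21 without the T cell ZsG-negative library and -2.52 without the T cell ZsG-positive library, and the second was 1.34 without the former, all called. The second value of *Ccl3* was 7.30 without the CD45 library. *Xcl1*, which attracts cross-presenting dendritic cells, stood at 472, 1123 and 1287 CPM, higher than in the Pdcd1-negative Tcf7+ cells (184, 145 and 420 CPM, 1.81 ± 0.34). It was seen in 39 members, and 5 of them held 55.1% of its 670 UMIs. In comparison with the Pdcd1+ Havcr2+ cells (1013, 952 and 9325 CPM) *Xcl1* was called lower (-1.38 ± 0.32), although in the T cell ZsG-negative library it was the higher, and without the ZsG-positive library of that sort the difference was -0.46 and not called, as it also was without the CD45 library (-1.47). It was -2.12 and called without the T cell ZsG-negative library. With DESeq2 neither *Xcl1* call held (-1.30 and 1.89), nor did that of *Ifng* over the Pdcd1-negative Tcf7+ cells (2.39).

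*Ccl5* was unlike the other chemokines. It stood at 5950, 10479 and 5915 CPM, above the 3513, 3532 and 3569 CPM of the Pdcd1+ Havcr2+ cells (1.00 ± 0.12, edgeR adjusted p = 1.9e-06) and above the 4347, 4286 and 3437 CPM of the Pdcd1-negative Tcf7+ cells (0.68 ± 0.12, edgeR adjusted p = 0.00088), so that the values of the Tcf7+ Pdcd1+ cells overlapped with neither class, and both calls were kept without each library. It was seen in 94 of the 104 cells, and the 5 cells with most *Ccl5* held 19.4% of its UMIs. After thinning it was seen in 86.8%, 87.5% and 69.2% of the members and in 13.0%, 11.3% and 15.9% of the macrophage-like cells of the same libraries. *Gzma*, a granzyme of memory and effector cells, was also higher in both comparisons (1.46 ± 0.24 and 1.34 ± 0.23), at 681, 999.9 and 140 CPM, but it came from 29 cells of which 5 held 53.2% of the UMIs, and without the T cell ZsG-negative library the second call was lost (0.68), while without the CD45 library the value was 2.01. After thinning, a *Gzma* UMI was seen in 15.1%, 16.7% and 19.2% of the members and in 8.79%, 0% and 1.44% of the macrophage-like cells of the same libraries, where 0 of 62 cells allow up to 4.84%. *Gzmb*, the granzyme most tied to killing, stood at 423, 2819 and 290 CPM. It was lower than in the Pdcd1+ Havcr2+ cells (2373, 2733 and 3139 CPM, -1.74 ± 0.33) and higher than in the Pdcd1-negative Tcf7+ cells (222, 369 and 285 CPM, 1.46 ± 0.35), but the first difference was reversed in the T cell ZsG-negative library. A single cell of that library held 224 of the 726 *Gzmb* UMIs of the class, and 5 cells held 66.5%. Without the CD45 library both *Gzmb* calls were lost (-1.35 and 1.79), and without the T cell ZsG-negative library the second was (0.43), while the first was then -2.89 and called. Without the T cell ZsG-positive library the first was -1.14 and called. The pore protein gene *Prf1*, at 90.7, 386 and 42.1 CPM, was called in the same directions (-2.13 ± 0.33 and 1.63 ± 0.43), its first call lost without the CD45 library (-1.48) and its second without the T cell ZsG-negative library (0.46) and after thinning (0.73). Without the T cell ZsG-negative library the first value of *Prf1* was -3.36, and without the CD45 library the second was 2.44, both called. DESeq2 called neither comparison of *Gzmb* (-1.84 and 1.35) or of *Prf1* (-2.21 and 1.63), nor the second of *Gzma* (1.33).

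**Figure D4:**
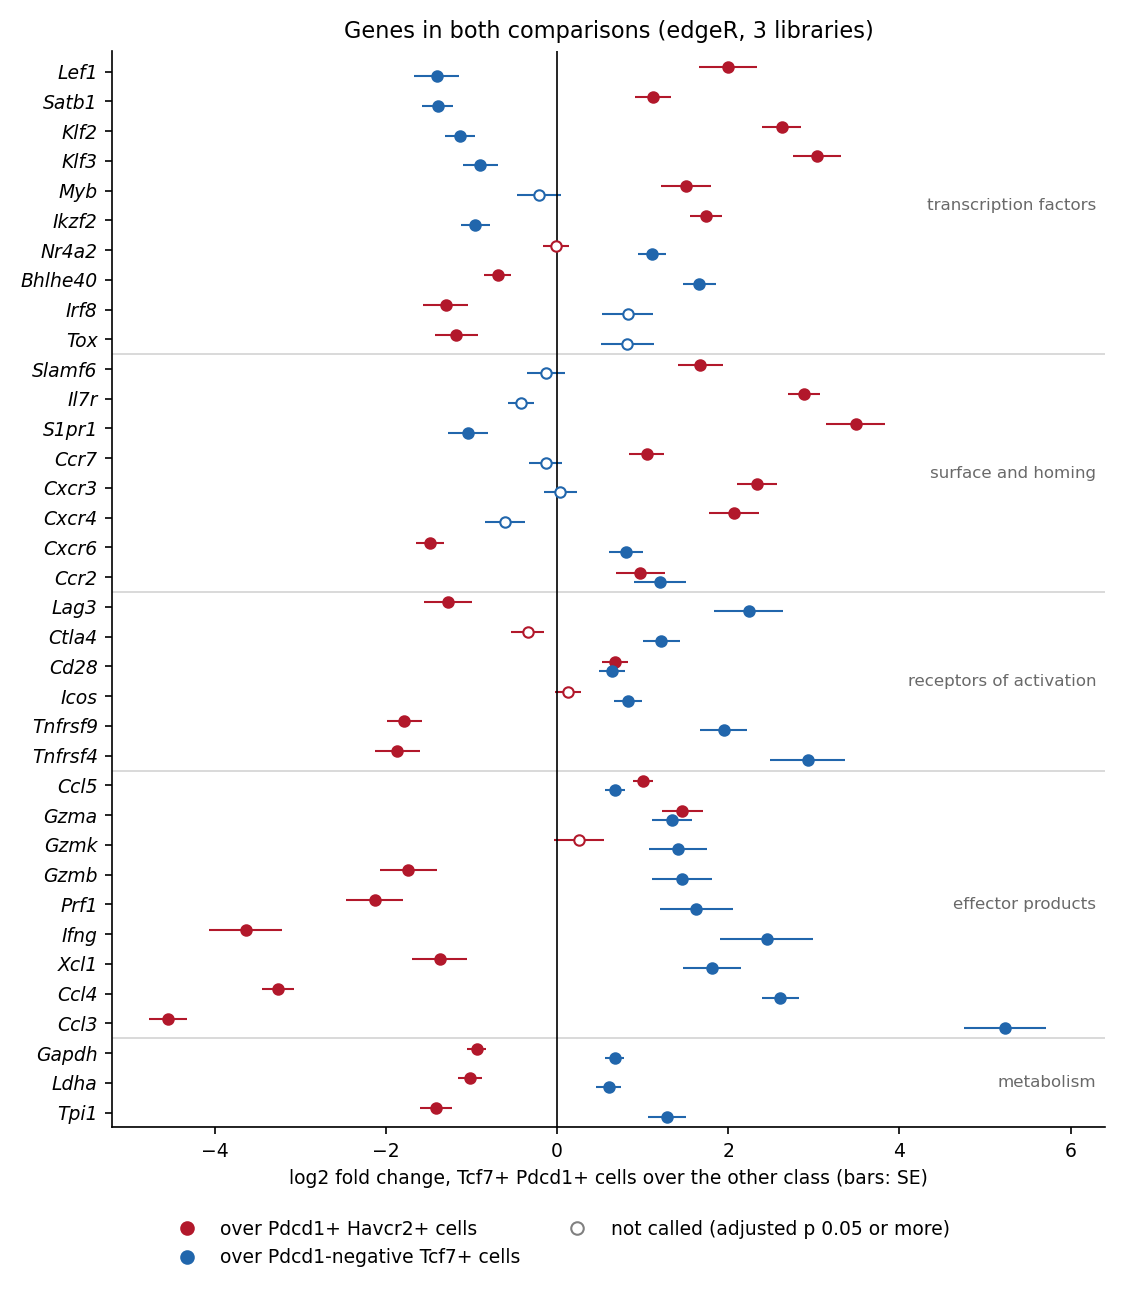
Log2 fold change of 36 genes picked from the lists for display after their values were seen, Tcf7+ Pdcd1+ cells over Pdcd1+ Havcr2+ cells (red) and over Pdcd1-negative Tcf7+ cells (blue), with SE as bars and open points for genes that were not called. The lymphoid homing genes lie right of 0 in red and at or left of 0 in blue, and most effector products the other way round. Of the effector products, *Ccl5*, *Gzma* and *Gzmk* are right of 0 in both, *Gzmk* with an open red point. The receptors *Ccr2*, *Cd28* and *Icos* also lie right of 0 in both, *Icos* with an open red point.

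Several glycolysis genes, like *Ccl3*, *Ccl4* and *Ifng*, were called between the other classes. Of 10 glycolysis genes tested, 7 were lower than in the Pdcd1+ Havcr2+ cells and 7 higher than in the Pdcd1-negative Tcf7+ cells, with none called the other way and medians of -0.998 and 0.64. *Gapdh* stood at 1388, 1228 and 1586 CPM, between 2775, 2597 and 2561 CPM in the Pdcd1+ Havcr2+ cells (-0.94 ± 0.11) and 723, 687 and 950 CPM in the Pdcd1-negative Tcf7+ cells (0.67 ± 0.11), without overlap between the classes. *Tpi1*, another enzyme of the pathway, gave -1.41 ± 0.19 and 1.29 ± 0.22. Against the Pdcd1-negative Tcf7+ cells these were the 2 genes of the list called whichever library was left out, and after thinning *Gapdh* alone was called. *Ldha* (0.57), *Hk2* (2.73) and *Eno1* (0.50) were not called without the CD45 library, *Pgk1* (0.81), *Pgam1* (0.76), *Hk2* (1.15) and *Eno1* (0.53) without the T cell ZsG-negative library, and *Pgam1* (0.66) and *Eno1* (0.52) without the T cell ZsG-positive library. Against the Pdcd1+ Havcr2+ cells the call of *Pgam1* was lost without the CD45 library (-0.68). Of the 73 oxidative phosphorylation genes tested, 19 were lower and 1 higher than in the Pdcd1+ Havcr2+ cells, and none was called against the Pdcd1-negative Tcf7+ cells, with medians of -0.27 and 0.17. Of the 83 cytosolic ribosome genes tested, 53 were lower than in the Pdcd1-negative Tcf7+ cells and 1 (*Rps27l*) higher, with a median of -0.37, while 11 were higher and 5 lower than in the Pdcd1+ Havcr2+ cells.

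Interferon-induced genes were higher than in the Pdcd1+ Havcr2+ cells. All 9 genes tested (of 10 listed) were called, with a median log2 fold change of 1.46. Without the CD45 library *Bst2* (0.39), *Zbp1* (0.51) and *Oasl2* (3.40) were not called, and without the T cell ZsG-negative library *Rsad2* (1.19) was not. *Isg15*, a ubiquitin-like protein, stood at 288, 497 and 253 CPM, against 96.0, 164 and 113 CPM (1.46 ± 0.15, edgeR adjusted p = 4.0e-07). Against the Pdcd1-negative Tcf7+ cells none of the 9 was higher and 1 (*Bst2*, -0.54 ± 0.15) was lower, and the difference between the comparisons was not itself tested. The call of *Bst2* was lost in the T cell sort alone (-0.43) and without its ZsG-positive library (-0.50). Of the early response genes, *Fos* was higher than in the Pdcd1+ Havcr2+ cells (95.3, 70.2 and 468 CPM against 24.9, 24.7 and 48.5 CPM, 2.54 ± 0.32, or 1.81 without the T cell ZsG-positive library). *Fos* and its relatives also rise when tissue is digested, and their part in this result was not tested.

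The 8 largest rises over the Pdcd1+ Havcr2+ cells were those of *Tnfrsf26*, *Dapl1*, *S1pr1*, *Ifit3b*, *Gzmm*, *Ddx60*, *Cd7* and *Oasl2*, with log2 fold changes from 3.15 to 3.87. *Dapl1*, a gene of naive and stem-like T cells, stood at 195, 64.3 and 88.9 CPM against 10.6, 2.24 and 11.7 CPM. The 8 largest falls were those of *Mt2*, *Gzmc*, *Ccl3*, *Mt1*, *Ccl1*, *AA467197*, *Ifng* and *Asns*. The metallothionein *Mt1* stood at 9.30, 5.85 and 18.7 CPM against 211, 78.5 and 119 CPM (-3.79 ± 0.35). *Mt2* had no UMI in any Tcf7+ Pdcd1+ cell of the 3 libraries and 118 UMIs in 50 Pdcd1+ Havcr2+ cells, so it was at least 9.30-fold lower, with a floor of 3 counts over the group. Without the CD45 library *Mt1* was at -2.95, *Gzmc* at -3.58 and *AA467197* at -7.48, and without the T cell ZsG-positive library *Ifit3b* at 4.14, all called. In the T cell sort alone *Gzmm* (2.82), *Ddx60* (2.71) and *Oasl2* (3.40) were no longer called, and *Tnfrsf26* no longer passed the filter.

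Over the Pdcd1-negative Tcf7+ cells the 8 largest rises were those of *Dusp14*, *Slc17a6*, *Ccl3*, *Cd200*, *Dusp4*, *Tnfrsf4*, *Phactr2* and *Rgs16*. *Cd200*, an inhibitory surface ligand, stood at 39.5, 40.9 and 23.4 CPM against 1.53, 1.06 and 3.56 CPM (4.06 ± 0.65). Its 29 UMIs lay in 9 of the 104 cells, and the 7 of the T cell ZsG-negative library in 4.17% of the 24 cells, that is 1 cell. After thinning *Cd200* was seen in 0.962% of the Tcf7+ Pdcd1+ and 0.482% of the Pdcd1-negative Tcf7+ cells, and with at least 2 UMIs of *Tcf7* in both classes it was at 2.66 and not called. *Dusp4*, a phosphatase that curbs MAP kinases, was seen in 15 cells and stood at 18.6, 35.1 and 74.9 CPM against 3.82, 5.28 and 3.56 CPM (2.95 ± 0.52). *Dusp14*, a phosphatase of the same family, had 14 UMIs in 6 cells and none in the Pdcd1-negative Tcf7+ cells, at least 16.1-fold higher with a floor of 3 counts over the group, and *Slc17a6*, a glutamate transporter, had 6 UMIs in 4 cells and none, at least 6.92-fold higher. The 8 largest falls were those of *Trgv2*, *Tmem108*, *Nsg2*, *Il6st*, *Irs2*, *Treml2*, *Pde2a* and *Gpr146*, with log2 fold changes from -2.98 to -1.80. *Nsg2* stood at 23.3, 17.5 and 0 CPM against 70.2, 71.8 and 53.4 CPM, and *Il6st*, the shared signal chain of the IL-6 receptor family, at 16.3, 5.85 and 4.68 CPM against 38.9, 47.5 and 39.2 CPM. Of these 8, *Nsg2* was the one still called whichever library was left out, and of the rises *Ccl3*, *Cd200*, *Dusp4* and *Tnfrsf4* were. *Nsg2* (-3.12) and *Il6st* (-3.14) fell further and *Rgs16* (3.59) rose further without the CD45 library, *Cd200* (4.72) without the T cell ZsG-positive library, where *Dusp4* was at 2.24. Without the T cell ZsG-negative library *Il6st* (-1.80), *Irs2* (-1.83), *Pde2a* (-1.63), *Treml2* (-2.03), *Trgv2* (-2.74), *Tmem108* (-1.99), *Gpr146* (-1.61), *Slc17a6* (5.53) and *Phactr2* (2.79) were not called. Without the T cell ZsG-positive library *Trgv2* (-2.22), *Tmem108* (-2.10), *Treml2* (-1.83), *Gpr146* (-1.75), *Phactr2* (2.30) and *Rgs16* (2.08) were not, and *Dusp14* did not pass the filter. Without the CD45 library *Irs2* (-3.42), *Tmem108* (-3.65), *Treml2* (-1.84) and *Phactr2* (4.07) were not, and *Trgv2*, *Pde2a*, *Gpr146* and *Slc17a6* did not pass the filter.

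The members were mixed in the transcripts that were seen. A UMI of *Slamf6* was seen in 43 cells, of *Il7r* in 58 and of both in 21, while 24 cells had neither. *Gzmb* was seen in 49 cells, 26 of them with *Slamf6* and 21 with *Il7r*. After thinning, *Il7r* was seen in 43.4%, 50% and 30.8% of the members and in 1.26%, 12.9% and 7.21% of the macrophage-like cells of the same libraries. For *Gzmb* the shares were 26.4%, 41.7% and 34.6%, beside 5.02%, 0% and 1.44%, where 0 of 62 cells allow up to 4.84%. *Ccl3* was limited to 14 cells, of which 5 held 80.6% of its 93 UMIs, and the highest single cell gave 182 of the 404 UMIs of *Ccl4* and 86 of the 157 of *Ifng*. *Slamf6*, *Il7r* and *Cxcr3* were spread more evenly, with 30.8%, 25.1% and 22.9% of their UMIs in the top 5 cells. At a median of 6349.5 UMIs a missing UMI does not show that a gene is off.

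Between the ZsG gates, only the T cell sort allowed a comparison within the members, 26 cells with 213683 UMIs against 24 cells with 171010 UMIs. Of the 2563 genes whose UMIs summed to 20 or more across this pair of libraries, 110 were 2-fold or more higher (4.29%) and 155 lower (6.05%) in the ZsG-positive cells, on a scale with 0.5 added to each sum. The inhibitory receptor *Lag3* was 178 CPM in ZsG-positive and 35.1 CPM in ZsG-negative cells (log2 ratio 2.24, interval 1.09 to 3.87) and was seen in 14 of 26 and 3 of 24 cells. In the Pdcd1+ Havcr2+ cells of the same libraries its ratio was 0.29. In the Pdcd1-negative Tcf7+ cells its UMIs did not reach 20, so no ratio was taken. Its CPM there, given above, was also the higher in the ZsG-positive library. No difference between the classes in their ZsG ratios was tested. The early response genes *Fos* and *Fosb* gave 2.69 (interval 1.87 to 3.74) and 2.98 (1.68 to 5.08), beside 0.92 and 1.00 in the Pdcd1+ Havcr2+ cells and 0.30 and 1.25 in the Pdcd1-negative Tcf7+ cells, the mitochondrial carrier *Slc25a11* gave 2.71 (0.96 to 6.14), and the microtubule regulator *Stmn1* gave 2.75 (1.26 to 5.31) from 29 UMIs in 4 cells against 3. The ratios of *Slc25a11* were -0.29 and -0.23 and those of *Stmn1* -0.10 and -0.21 in the same 2 classes. *Nrgn*, a calmodulin-binding protein, had 22 UMIs in 4 ZsG-positive cells and none in the ZsG-negative cells, at least 5.87-fold higher with a floor of 3 counts. Over all 2563 genes, 1221 were above 0. Of the 3 inhibitory receptors measured here, all were above 0 and 2 were 2-fold higher, *Lag3* and *Cd160* (1.44, interval 0.44 to 2.66). Of the 8 chemokine receptors, integrins and residence genes measured, 2 were above 0 (median -0.63, beside -0.03 over all genes). Among them *Cd69* (1.44, interval 0.83 to 2.14) was 2-fold higher and 1 gene was 2-fold lower. *Slamf6* was at 1.06 (interval 0.10 to 2.19).

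Of 8 killing genes measured in this way, 3 were 2-fold lower in the ZsG-positive members and none 2-fold higher. *Gzmb* was 290 CPM against 2819 CPM (log2 ratio -3.27, interval -3.69 to -2.90), *Prf1* 42.1 against 386 CPM (-3.13, interval -4.39 to -2.18) and *Gzma* 140 against 999.9 CPM (-2.81, interval -3.44 to -2.27). Of the 24 ZsG-negative members, 7 had all 171 UMIs of *Gzma* and 6 had all 66 of *Prf1*, with up to 61 and 35 in 1 cell. *Gzmb* was seen in 16 of them and in 11 of the 26 ZsG-positive members. The shares of cells with *Gzma* or *Prf1* were not lower in the ZsG-positive members. There 9 cells had *Gzma* (34.6%, beside 29.2% of the ZsG-negative members) and 8 had *Prf1* (30.8%, beside 25%). When the highest cell of each library was left out, the log2 ratios were -3.13, -2.43 and -2.93. In the Pdcd1+ Havcr2+ and the Pdcd1-negative Tcf7+ cells the ratios were 0.20 and -0.37 for *Gzmb*, 0.41 and -0.01 for *Prf1* and -1.62 and -0.91 for *Gzma*. Among interferon-induced genes *Ifit1* (-2.67, interval -3.74 to -1.81) and *Mx1* (-2.51, interval -4.65 to -1.07) were lower, as was the chemokine *Cxcl10* (-2.94, interval -5.52 to -1.38), of which 1 cell held 15 of the 21 UMIs in the ZsG-negative members. Without the highest cell of each library the log2 ratio of *Cxcl10* was -1.70. In the Pdcd1+ Havcr2+ and the Pdcd1-negative Tcf7+ cells the ratios were -0.69 and -0.31 for *Ifit1*, -1.32 and -1.14 for *Mx1* and -0.39 and -0.79 for *Cxcl10*. All 9 listed interferon-induced genes that reached 20 UMIs were below 0 (median -0.94), and 3 of them were 2-fold lower. Over all 2563 genes the median was -0.03 and 1221 genes were above 0. Of 6 homing and survival genes, 3 were above 0, near the share over all genes, and 2 were 2-fold lower, *Il7r* (-1.57, interval -2.15 to -1.04) and *S1pr1* (-1.62, interval -3.19 to -0.36). The CPM of *Il7r*, given above, was also lower in the ZsG-positive library in both other classes. The 4 stem and memory factors measured were all below 0, with *Satb1* 2-fold lower (-1.84, interval -2.86 to -0.97). The 10 listed factors together went from 889 CPM in ZsG-negative to 562 CPM in ZsG-positive members. In the same order they went from 1756 to 1131 CPM in the Pdcd1-negative Tcf7+ cells and from 316 to 305 CPM in the Pdcd1+ Havcr2+ cells. These are differences between 2 libraries with no replicate, and the intervals count molecules, not cells.

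**Figure D5:**
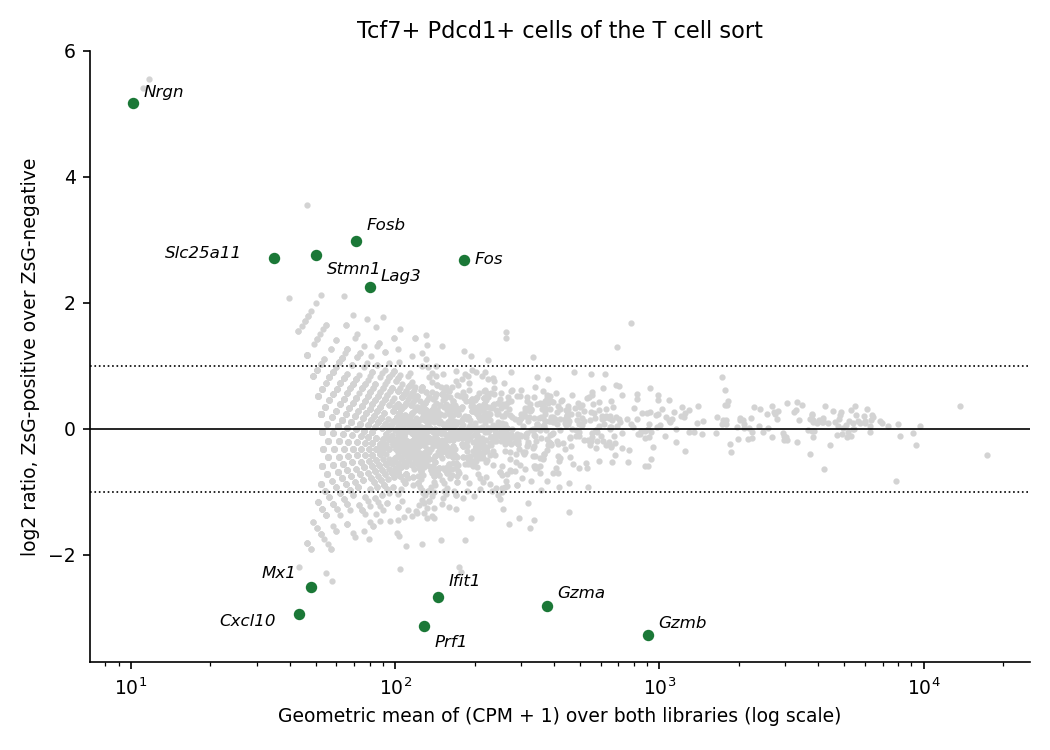
Log2 ratio of ZsG-positive over ZsG-negative Tcf7+ Pdcd1+ cells of the T cell sort (0.5 added to each sum) against the geometric mean of CPM + 1 over both libraries (log axis), 1 point for each of 2563 genes, with the 12 named genes in green and dotted lines at 2-fold. *Lag3*, *Fos* and *Fosb* lie above 2 and *Gzmb*, *Prf1* and *Gzma* below -2.

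RNA of other cell types was looked for with fixed marker lists. The B cell list (4 genes) gave 2, 1 and 0 UMIs in the 3 libraries, the dendritic cell list (4 genes) 2, 0 and 0, the CD4 T cell list (2 genes) 1, 0 and 0 with *Cd4* itself at 0, and the list of melanoma pigment genes (5 genes) 0, 2 and 2. The gamma delta T cell list (3 genes) gave 8, 0 and 0 UMIs, beside 46.6, 27.5 and 55.2 CPM in the Pdcd1-negative Tcf7+ cells, with *Trgv2* the most abundant there. The macrophage list (10 genes) summed to 474, 368 and 239 CPM, led by *Fcer1g* in the first library and *Ctss* in the others, genes that T cells and NK cells can also express, with UMIs of 5, 6 and 7 of its genes. *Csf1r* and *Ms4a7* were at 0 in all 3 libraries and *C1qc* and *Apoe* in the first and second, while in the T cell ZsG-positive library *C1qc* had a UMI in 15.4% and *Apoe* in 7.69% of the members. *C1qb* and *Lyz2*, which the rule limits, each had a UMI in 15.4% of the members of that library. In the other classes it summed to 235, 146 and 247 CPM (Pdcd1+ Havcr2+) and to 684, 340 and 538 CPM (Pdcd1-negative Tcf7+). The NK cell list (5 genes) summed to 191, 35.1 and 18.7 CPM, with *Klre1* the most abundant, and *Ncr1*, a defining NK receptor, at 0 in both libraries of the T cell sort. In the Pdcd1-negative Tcf7+ cells it summed to 261, 48.6 and 49.9 CPM and in the Pdcd1+ Havcr2+ cells to 180, 42.6 and 44.0 CPM. Of the genes of these lists that passed the filter, *Fcer1g* (1.497 ± 0.30) and *Ctss* (1.01 ± 0.21) were higher than in the Pdcd1+ Havcr2+ cells, calls lost in the T cell sort alone (0.46 and 0.96), and *Klre1* was lower in both comparisons (-0.90 ± 0.25 and -1.07 ± 0.25), calls lost there too (-0.76 and -0.82). Against the Pdcd1-negative Tcf7+ cells *Fcer1g* (-1.02 ± 0.26, or -2.15 without the CD45 library) and *Cd74* (-1.44 ± 0.36, or -2.29 without it) were lower, the former not without either library of the T cell sort (-0.90 and -0.63), the latter not without its ZsG-positive library (-0.69). The part of these other cells in the results above was not tested.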

How the data were processed

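Per the methods, the authors ran Cell Ranger on the mm10 genome (6.1.2 in the methods and the submitters' processing notes, 7.0.0 in the header of the CD45 matrix) and combined the libraries of each sort with its aggr command. No source read for this work says whether that step evened depth. The deposited values are UMI counts per gene and cell barcode. Cells of the CD45 sort had 1000 to 5999 genes and under 10% mitochondrial UMIs, those of the T cell sort 50 to 5999 genes and under 15%. No doublet caller was run. The gate kept cells with over 3 UMIs of *C1qa*, *C1qb* and *Lyz2* out, and gating without the deepest 5% of cells was an alternative. UMIs were summed by library and class with Python 3.11.15 (numpy 2.4.6, scipy 1.17.1) and tested with edgeR 4.0.16 in R 4.3.3 (filterByExpr, TMM, quasi-likelihood, the 13 rule genes left out, library and class as terms). An SE is the fold change over the root of the test's F. Sums have exact Poisson, shares exact binomial and ratios exact conditional 95% intervals. Replicate libraries do not exist, so a p-value compares classes over libraries.

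On simulated counts for the comparison with Pdcd1+ Havcr2+ cells (5773 genes), 62.9% of 105 genes changed 2-fold and 92.6% of 95 changed 4-fold were called, with 8 false calls. Named genes were the 8 largest log2 fold changes in each direction among called genes that went the same way in every library, the genes of the lists described, and for the ZsG gates the 6 largest log2 ratios in each direction among genes with at least 20 UMIs and a UMI in at least 10% of the members of a library. The members and the 21 gene lists were chosen with earlier results of these data known. *Mx1* and *Aldoa* were not in both matrices under 1 symbol and entered no class test. Figures were drawn with matplotlib 3.10.9. Alternatives included DESeq2 1.42.0, no filter, thinning, stricter gates and leaving out each library. Some genes of the lists are counted but not reported here by name.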

Additional observations from a re-analysis of the deposited data

How the results depend on the processing

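The number of Tcf7+ Pdcd1+ cells (104) fell to 20 when cells were thinned to 2000 UMIs before the gate, to 52 with at least 2 UMIs of *Tcf7*, to 63 with at least 2 of *Pdcd1* and to 68 with a mitochondrial limit of 5%. The log2 ratio of their share between the gates of the T cell sort ranged from -0.22 to 0.76 over the alternatives, within the main interval, and was -0.14 with the libraries of that sort exchanged. Genes called higher and lower than in the Pdcd1+ Havcr2+ cells (577 and 514) numbered 320 and 215 with DESeq2, 202 and 148 after thinning (2583 genes tested), 412 and 341 with *C1qa*, *C1qb* and *Lyz2* at 0, and 179 to 506 and 95 to 491 with a library left out. Against the Pdcd1-negative Tcf7+ cells (103 and 150) they numbered 60 and 89 with DESeq2, 36 and 91 after thinning, 67 and 92 with those genes at 0, 83 and 67 without mitochondrial and ribosomal genes, 52 and 110 with at least 2 UMIs of *Tcf7* in both classes, and 49 to 72 and 73 to 92 with a library left out. Without the filter on low counts (13779 genes tested) the first comparison gave 483 higher and 650 lower, so that lower calls outnumbered higher ones. The second gave 120 and 207. The part of the number of genes tested in these counts was not tested. The lists of oxidative phosphorylation and ribosome genes were left out of the next counts. Of the 73 and 43 genes called in the other 19 lists, 35 and 17 were called whichever library was left out. After thinning, which draws on the same UMIs so that agreement was likely, 61 of 61 and 36 of 37 that could be fitted kept their sign. The exception was *Eno1* (0.52, and -0.09 thinned). *Slamf6* against the Pdcd1-negative cells went from -0.13 to 0.0351 after thinning, and *Cxcr3* from 0.04 to between -0.00734 and 0.0915 with a library left out, neither called in the 9 alternatives computed for each. Of other named genes, DESeq2 did not call *Bst2* and *Klre1* in either comparison or *Eno1* against the Pdcd1-negative cells, and gave no adjusted p for most of the 8 largest rises and 8 largest falls there. Thinning also ended the calls of *Zbp1* (0.74) and *Klre1* (-0.38) against the Pdcd1+ Havcr2+ cells, and of *Cxcr6* (0.77), *Bst2* (-0.24), *Fcer1g* (-0.80), *Klre1* (-0.78) and *Rgs16* (2.00) against the Pdcd1-negative cells. Genes 2-fold higher and lower in ZsG-positive members (110 and 155) numbered 45 and 100 with 5 added to each sum, 17 and 42 with at least 50 UMIs and 24 and 49 after thinning. Thinning before the gate left 1 library with 10 cells of each class, so that fit was not run. Each gate of each sort has 1 library, so no replicate numbers could pair samples. The classes, which come from the same libraries, were compared with the library as a term in every fit. Leaving out the highest cell of each library was chosen after seeing the data. With 104 cells and a median of 6349.5 UMIs, genes such as *Id3* and *Cxcr5* were below what a test could read.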

Other observations

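Variable segments of the T cell receptor beta chain could be read for few cells, since the libraries capture the end of the transcript away from them. Of the 104 Tcf7+ Pdcd1+ cells, 80 had no UMI of a *Trbv* segment and 22 had UMIs of exactly 1 segment. These 22 cells held 12 segments, and no segment was seen in more than 3 of them. Of 47 Pdcd1+ Havcr2+ cells with exactly 1 segment, 10 held *Trbv2* (21.3%), with 15 segments seen in all. Without paired receptor sequences these counts do not show clones.

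The steps of the gate took unequal shares of cells from the libraries. The limit on *Mki67* and *Top2a* took 820 cells to 482 in the CD45 ZsG-negative library, 372 to 353 in the T cell ZsG-negative library and 399 to 347 in the T cell ZsG-positive library, and 68 to 31 in the CD45 ZsG-positive library. The limit on CD3 genes left 862 of 956 cells in the first of these libraries, 391 of 424 in the second and 462 of 717 in the third, and in the CD45 ZsG-positive library the limit on *C1qa*, *C1qb* and *Lyz2* took 194 cells to 68. Of the cells that met every other condition for Tcf7+ Pdcd1+ cells, 3 lay just outside with 3 UMIs of *Mki67* and *Top2a*, beside 3 just inside with 2.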
